A study of Mus musculus with 8 samples.

Results

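The transcripts described here are 33 genes of 24346 listed, each used as a marker of blood-derived immune cells. Their levels come from RNA sequencing of mesenchymal cells that were sorted from large intestine of mice, in 8 libraries. The genes were taken by symbol from a given list and grouped by lineage into 7 pan-leukocyte, 12 macrophage, 5 MHC class II, 5 T and NK cell, 3 B cell and 1 mast cell gene, and all 33 were found in every table. The first pair of libraries compares untreated cells of Foxl1cre; Cxcl12 flox/flox mice (1 library, called the Foxl1cre library below) with untreated cells of Cxcl12 flox/flox mice (1 library, the floxed control library). Both carry the floxed Cxcl12 alleles, Foxl1-Cre acts only in cells that express or expressed Foxl1, and no strain label is given for this pair. The other set is from C57BL/6 cells given GABA at 1 mM with taurine at 20 mM, with 3 libraries at 6 h and 3 at 0 h. No untreated library at 6 h was analysed here, so the effect of the amino acids and that of time cannot be told apart. Nothing in the labels says whether the 3 libraries of a time point had separate cultures or animals as their source, so the p-values below take in no more than the spread among these libraries, and that spread may be technical.

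Leukocytes share a set of genes that other cells largely lack, among them Ptprc, which encodes the phosphatase CD45 used to sort them. The intestinal lamina propria is rich in macrophages, which engulf dying cells and microbes and present peptides on MHC class II molecules to T cells. MHC class II genes are switched on together by the coactivator CIITA, constitutively in B cells, macrophages and dendritic cells and after interferon gamma in many other cells.

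The sort kept cells that stain for gp38 (podoplanin) and strongly for PDGFRα and took out those with CD45, EpCAM, CD31 or Ly6C on the surface. The genes sorted for were abundant in all 8 libraries: Pdgfra ran from 152 to 227 FPKM in the GABA and taurine libraries and stood at 226 FPKM in the Foxl1cre library and 202 FPKM in the floxed control library, and Pdpn was at 91.7 FPKM or more throughout. FPKM counts fragments scaled by transcript length and by the mapped fragments of the library, so levels can be set against each other between genes. Of the genes sorted against, Epcam and Pecam1 (CD31) lay at 0.480 FPKM or less in the GABA and taurine libraries and Ly6c1 between 8.76 and 12.4 FPKM, but they were not absent from the genotype pair. Epcam stood at 14.6 FPKM in the Foxl1cre library and 4.18 FPKM in the floxed control library, Pecam1 at 2.75 and 4.86 FPKM, and Ly6c1 at 89.6 and 140.9 FPKM. Cxcl12 stood at 740 FPKM in the Foxl1cre library, against 1298 FPKM in the floxed control library. Total FPKM per library ran from 513001 to 579004. Low values move in steps of 1 fragment, which gave an estimated depth of 6277000 fragments for the Foxl1cre library, 4993000 for the floxed control library and 16912000 to 20678000 for the GABA and taurine libraries.

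Promoter windows are shown for the pair of MHC class II genes that RefSeq covers here and for Cd68, which behaved differently from every other leukocyte transcript across the libraries. Each window runs from 250 bases before to 50 bases after the annotated start (RefSeq, build GRCm38.p6, 5′ to 3′ on the gene's strand). Capitals in the MHC class II windows mark GCAACT and CTGATTGG, and capitals in the Cd68 window mark CCAAT.
H2-Aa, chr17:34287774-34288073, minus strand: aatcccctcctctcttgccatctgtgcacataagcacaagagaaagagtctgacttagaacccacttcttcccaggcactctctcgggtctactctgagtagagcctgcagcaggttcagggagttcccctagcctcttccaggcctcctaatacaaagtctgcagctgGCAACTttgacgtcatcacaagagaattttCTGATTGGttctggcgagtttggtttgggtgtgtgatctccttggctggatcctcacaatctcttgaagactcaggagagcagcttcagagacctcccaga
H2-Eb1, chr17:34305617-34305916, plus strand: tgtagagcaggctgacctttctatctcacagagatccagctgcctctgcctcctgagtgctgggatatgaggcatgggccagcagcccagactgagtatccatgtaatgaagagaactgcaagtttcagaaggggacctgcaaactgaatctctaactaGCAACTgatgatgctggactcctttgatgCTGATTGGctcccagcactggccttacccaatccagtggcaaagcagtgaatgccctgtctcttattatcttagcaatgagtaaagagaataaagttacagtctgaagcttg
Cd68, chr11:69666121-69666420, minus strand: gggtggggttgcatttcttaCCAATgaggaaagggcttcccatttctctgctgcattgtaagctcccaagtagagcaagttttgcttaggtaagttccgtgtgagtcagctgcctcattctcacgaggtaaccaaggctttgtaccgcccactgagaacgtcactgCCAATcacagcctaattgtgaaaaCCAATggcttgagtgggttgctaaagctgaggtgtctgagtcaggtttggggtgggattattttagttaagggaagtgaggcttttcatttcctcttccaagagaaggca

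MHC class II promoters are known for an X box and a Y box a short way upstream of the start, and the Y box holds CCAAT on the other strand. CTGATTGG began 51 bases before the start in H2-Aa and 62 bases before it in H2-Eb1, and GCAACT began 81 and 91 bases before it. On either strand, CTGATTGG was found in 4.1% of 32851 RefSeq windows of this length, GCAACT in 10.9% and both in 0.466%. The letters GCAACT were chosen after these windows had been read. CTGATTGG overlaps the shorter motif ATTGG, which reads CCAAT on the other strand and was found in 37.4% of all windows and in 9 of the 24 windows of 22 leukocyte genes that matched. Cd68 held it 3 times, beginning 230, 84 and 60 bases before the start. These are matches of letters, with no measurement of binding.

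The members differ widely in level in the genotype pair, and the order of the lineages was the same in both libraries. MHC class II transcripts summed to 776 FPKM in the Foxl1cre library and 661 FPKM in the floxed control library. Macrophage transcripts summed to 204 and 161 FPKM, pan-leukocyte transcripts to 138 and 113 FPKM, B cell transcripts to 34.4 and 35.0 FPKM, and T and NK transcripts to 5.87 and 5.93 FPKM, in each case with the Foxl1cre library first. The 33 genes made up 0.219% of all FPKM in the Foxl1cre library and 0.191% in the floxed control library. In all, 26 of the 33 reached 1 FPKM in both libraries, as did 56.4% of all listed genes. Fewer leukocytes and less RNA per leukocyte cannot be told apart in these bulk values.

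**Figure D1:**
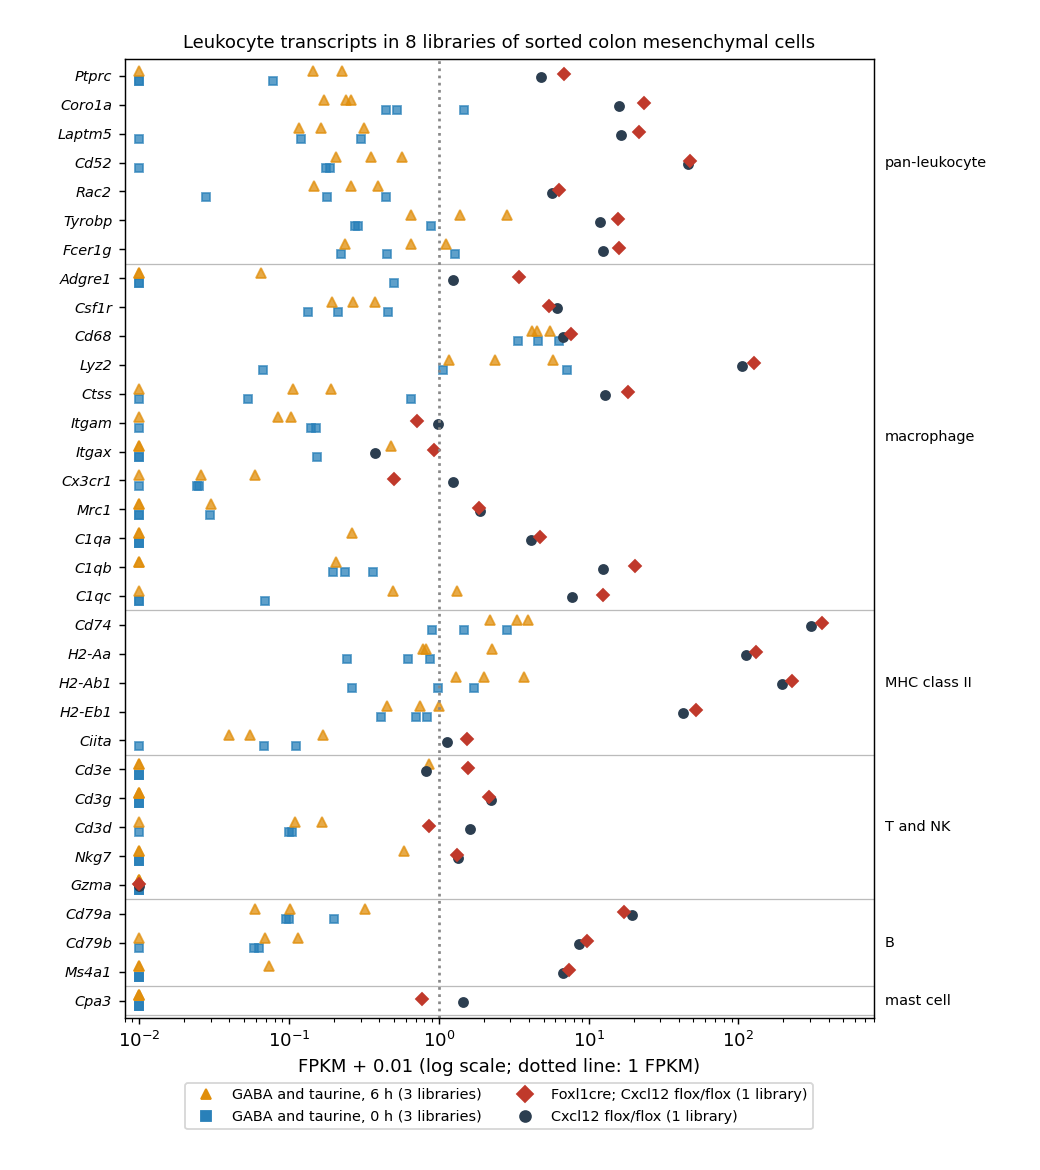
FPKM + 0.01 of each of the 33 leukocyte genes (log axis, 1 row per gene, grouped by lineage) in every library, with triangles for 6 h, squares for 0 h, a diamond for the Foxl1cre library and a circle for the floxed control library, and values of 0 drawn at the left edge. For 30 of the 33 genes all 6 GABA and taurine libraries lie to the left of both genotype libraries, and Cd68 is the only one that stays to the right of 1 FPKM in all 6.

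The genotype comparison asks how the sorted cells differ once Foxl1-Cre has acted on floxed Cxcl12. Leukocyte transcripts were on the whole a little higher in the Foxl1cre library. With 1 library per genotype no difference has a replicate check, and no test was made. Of the 33 genes, 29 averaged 1 FPKM or more over the pair, and 22 of these were higher in the Foxl1cre library and 7 lower, where 55.0% of all 14949 genes measured were higher. None of the 29 was at least 2-fold higher on the log2(FPKM + 1) scale (1.36% of all genes were) and none at least 2-fold lower (2.22% were). The median log2 difference was 0.22 over the leukocyte genes and 0.04 over all genes. By lineage it was 0.38 for the pan-leukocyte genes, 0.27 for the 9 macrophage genes measured, 0.23 for the MHC class II genes, 0.11 for the B cell genes and -0.01 for the 4 T and NK genes. Intervals given below for a ratio are 95% binomial intervals (exact Clopper-Pearson) on the estimated fragments of these 2 libraries and cover counting error only. Among 27 leukocyte genes with at least 20 estimated fragments in the pair, the interval lay above 1 for 12 and below 1 for 1, against 17.2% and 10.6% of all genes.

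**Figure D2:**
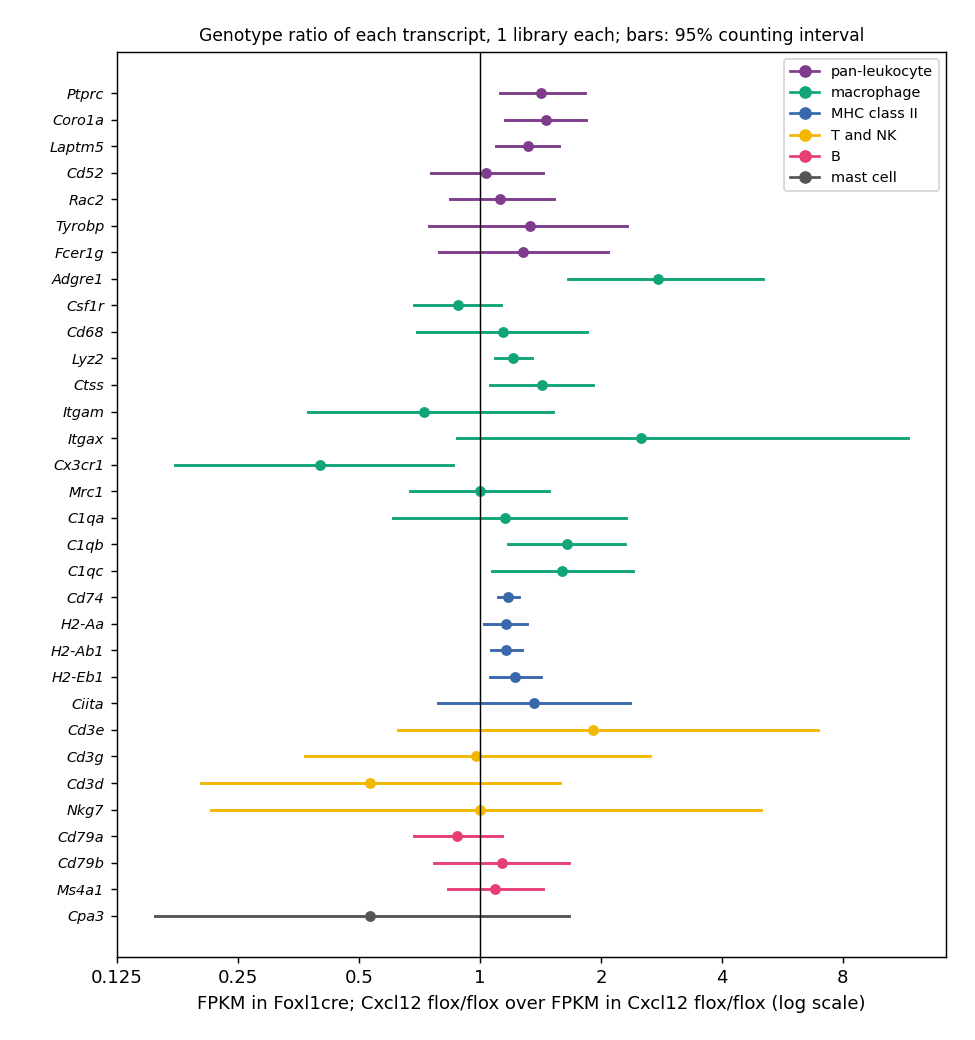
Ratio of FPKM in the Foxl1cre library to FPKM in the floxed control library for the 32 leukocyte genes above 0 (log axis, 1 row per gene, points coloured by lineage), with bars for the 95% counting interval. The 4 abundant MHC class II genes have narrow bars just above 1, Adgre1 sits farthest to the right at 2.77, and Cx3cr1 is the 1 gene whose bar lies wholly to the left of 1.

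All 7 pan-leukocyte genes were higher in the Foxl1cre library. Ptprc stood at 6.85 FPKM in the Foxl1cre library and 4.82 FPKM in the floxed control library, a ratio of 1.42 (interval 1.12 to 1.83). Coro1a, an actin-binding protein of leukocytes, stood at 23.4 against 16 FPKM, a ratio of 1.46 (1.16 to 1.84). Laptm5, a lysosomal membrane protein of blood cells, stood at 21.7 against 16.5 FPKM, a ratio of 1.32 (1.1 to 1.58). These are the 3 pan-leukocyte genes whose intervals lay above 1. The small surface glycoprotein gene Cd52 was the most abundant of the group but nearly level, at 47.6 FPKM in the Foxl1cre library and 46.0 FPKM in the floxed control library. Rac2, a small GTPase of blood cells, stood at 6.38 against 5.68 FPKM. The signalling adaptors Tyrobp (DAP12) and Fcer1g, the shared gamma chain of Fc receptors, stood at 15.7 against 11.8 FPKM and at 16 against 12.5 FPKM. The intervals of these 4 genes spanned 1.

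Macrophage genes went both ways. Adgre1, which encodes the macrophage surface protein F4/80, stood at 3.44 FPKM in the Foxl1cre library and 1.24 FPKM in the floxed control library. Its ratio of 2.77 (interval 1.66 to 5.07, from an estimated 64.4 and 18.5 fragments) was the largest of the 33 genes, although its log2 difference of 0.99 with a pseudocount of 1 was just short of 2-fold, and it passed 2-fold with a pseudocount of 0.1 and after rescaling to TPM. Csf1r, the receptor for the growth factor that macrophages need to survive, lay the other way at 5.44 against 6.16 FPKM, with an interval of 0.685 to 1.13. The fractalkine receptor gene Cx3cr1, known for lamina propria macrophages, stood at 0.491 FPKM in the Foxl1cre library and 1.23 FPKM in the floxed control library, a ratio of 0.399 (0.174 to 0.856) from an estimated 11 and 21.8 fragments. The libraries do not mark strand, and Csf1r shares exonic bases with Hmgxb3, Cx3cr1 with Gm33858 and Itgam with Gm49368, so reads cannot be told apart there.

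Among the abundant products of macrophages, Lyz2 (lysozyme) stood at 128 FPKM in the Foxl1cre library and 105 FPKM in the floxed control library, a ratio of 1.21 (1.09 to 1.35). The lysosomal protease gene Ctss, known for trimming the invariant chain of MHC class II, stood at 18.3 against 12.8 FPKM, a ratio of 1.43 (1.06 to 1.91). Both intervals lay above 1. The genes of the complement component C1q form a cluster on chromosome 4 and encode its 3 chains. C1qa stood at 4.73 FPKM in the Foxl1cre library and 4.11 FPKM in the floxed control library, C1qb at 20.3 against 12.4 FPKM and C1qc at 12.4 against 7.78 FPKM. The order of the 3 chains, C1qb above C1qc above C1qa, was the same in both libraries, and the intervals of C1qb (1.17 to 2.30) and C1qc (1.07 to 2.40) lay above 1. Cd68, a lysosomal glycoprotein, stood at 7.65 against 6.71 FPKM and Mrc1, the mannose receptor of tissue macrophages, at 1.86 FPKM in both. The integrin genes Itgam (CD11b, 0.707 against 0.975 FPKM) and Itgax (CD11c, 0.912 against 0.364 FPKM) lay under 1 FPKM in all 8 libraries, and their intervals spanned 1.

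MHC class II transcripts were the most abundant leukocyte transcripts of the genotype pair and all 5 were slightly higher in the Foxl1cre library. Cd74, the invariant chain, stood at 362 FPKM in the Foxl1cre library and 308 FPKM in the floxed control library, a ratio of 1.18 (1.11 to 1.25) from an estimated 2602 and 1758 fragments. H2-Ab1, the beta chain of I-A, stood at 229 against 196 FPKM and H2-Aa, its alpha chain, at 131 against 113 FPKM, each with a ratio of 1.16. H2-Eb1, the beta chain of I-E, stood at 52.1 against 42.6 FPKM, a ratio of 1.22. The 4 intervals lay above 1, with lower bounds from 1.03 to 1.11. H2-Ab1, H2-Aa and H2-Eb1 lie close together on chromosome 17, and the last pair are the genes whose promoter windows are shown above. Levels relative to Cd74 were nearly the same in both libraries: 0.632 in the Foxl1cre library and 0.639 in the floxed control library for H2-Ab1, 0.363 and 0.368 for H2-Aa, and 0.144 and 0.139 for H2-Eb1. Cd74 shares exonic bases with the microRNA gene Mir5107. Ciita, which shares them with Dexi, stood at 1.52 FPKM in the Foxl1cre library and 1.12 FPKM in the floxed control library, with an interval that spanned 1.

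Lymphocyte transcripts differed less than their counting error. The T cell receptor complex genes Cd3e, Cd3g and Cd3d, neighbours on chromosome 9, stood at 1.55, 2.15 and 0.850 FPKM in the Foxl1cre library and at 0.810, 2.2 and 1.6 FPKM in the floxed control library. Nkg7, a granule protein of NK and cytotoxic T cells, was at 1.32 FPKM in both, and the granzyme gene Gzma was listed at 0 in all 8 libraries. Each of the 4 detected T and NK genes rested on an estimated 12.3 or fewer fragments in either library, and their intervals spanned 1. The B cell receptor chain genes Cd79a and Cd79b stood at 17.2 and 9.80 FPKM in the Foxl1cre library and at 19.6 and 8.65 FPKM in the floxed control library, and Ms4a1 (CD20) at 7.37 and 6.77 FPKM. Their intervals spanned 1 as well, the narrowest of them 0.684 to 1.13 for Cd79a. Cpa3, the carboxypeptidase of mast cells, stood at 0.765 FPKM in the Foxl1cre library and 1.44 FPKM in the floxed control library, from an estimated 6.0 and 9.0 fragments. Cd3e shares exonic bases with Gm48719.

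Further immune genes, from lists beside the 33, went both ways and reached lower than the 29 leukocyte genes measured. Their lowest log2 difference was -1.50, in the other B and plasma cell list, against -0.49 for those 29. Of 16 other pan-leukocyte genes measured, 14 were higher in the Foxl1cre library, with a median log2 difference of 0.38, and Vav1, a signalling exchange factor of blood cells, had the largest at 2.24 against 1.07 FPKM. Of 10 other B and plasma cell genes, 6 were higher and 4 lower. Tnfrsf17 (BCMA), a receptor of plasma cells, stood at 0.529 FPKM in the Foxl1cre library and 3.31 FPKM in the floxed control library (ratio 0.160, 0.017 to 0.747) and was the only further immune gene with a mean of 1 FPKM or more that passed 2-fold on the log2(FPKM + 1) scale. Of 13 other T and NK genes, 6 were higher and 7 lower, with Cd2, an adhesion receptor of T and NK cells, at 4.76 against 2.13 FPKM. Dendritic cell genes had a median of -0.10 over 7 genes and granulocyte genes -0.19 over 6.

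Markers of the other excluded cell types lay further apart in the same libraries. The 12 epithelial genes summed to 922 FPKM in the Foxl1cre library and 99.3 FPKM in the floxed control library, and 8 of 11 measured were at least 2-fold higher, with a median log2 difference of 2.79. Krt19, a keratin of simple epithelia, stood at 52.9 against 4.61 FPKM. The 10 endothelial genes summed to 44.8 FPKM in the Foxl1cre library and 71.0 FPKM in the floxed control library, and 3 of 8 measured were at least 2-fold lower, with a median of -0.84. Mesenchymal genes had a median of 0.16 over 12 genes. The part of these cell types in the leukocyte values was not tested.

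The GABA and taurine libraries held low levels of the 33 leukocyte transcripts. The 33 genes summed to 24.1, 23.1 and 15.8 FPKM in the 6 h libraries and to 9.42, 25.9 and 10.2 FPKM in the 0 h libraries, against 1158 FPKM in the Foxl1cre library and 977 FPKM in the floxed control library. Only 1 of the 33, Cd68, reached 1 FPKM in all 6, where 41.9% of all listed genes did. Of the 26 that reached 1 FPKM in both genotype libraries, 1 did so in all 6 GABA and taurine libraries and 1 (Cd3g) was at 0 in all 6, where 72.1% and 7.4% of the 13737 genes that met the same condition did. Another 8 genes reached 1 FPKM in some of the 6 libraries, 24 lay under it in all 6, and 3 of these (Cd3g, Gzma and Cpa3) were listed at 0 in all 6, as were 29.7% of all genes. The mean over the 6 libraries was 1.11% of the genotype mean at the median of the 26 leukocyte genes and 80.0% at the median of the 13737 genes. The tables of the sets may have been normalised separately, so no test was made across them, and the sets also differ in treatment, estimated depth and label of strain. Further lists moved with this: the median percentage was 9.72% for 12 mesenchymal genes, 2.01% for 10 epithelial genes and 2.54% for 7 endothelial genes, against 103% for 7 genes of the interferon gamma pathway. Among further immune lists it was 1.22% for 15 other pan-leukocyte genes, 0.814% for 9 other B and plasma cell genes, 1.64% for 9 other T and NK genes and 1.41% for 7 dendritic cell genes. It was 16% for 10 other macrophage genes, 60.5% for 15 other MHC class II genes, 7.02% for 6 granulocyte genes and 27.7% for 8 genes for ligands of leukocyte receptors. The highest single gene was at 301% in the other macrophage, 584% in the other MHC class II, 119% in the granulocyte and 1190% in the ligand list. It was at 4150% in the other T and NK, 413% in the dendritic cell, 310% in the mesenchymal and 197% in the interferon gamma list. Foxl1 itself lay between 0.109 and 0.289 FPKM in the GABA and taurine libraries, against 11.6 FPKM in the Foxl1cre library and 10.2 FPKM in the floxed control library. The part of these differences in the leukocyte values was not tested.

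**Figure D3:**
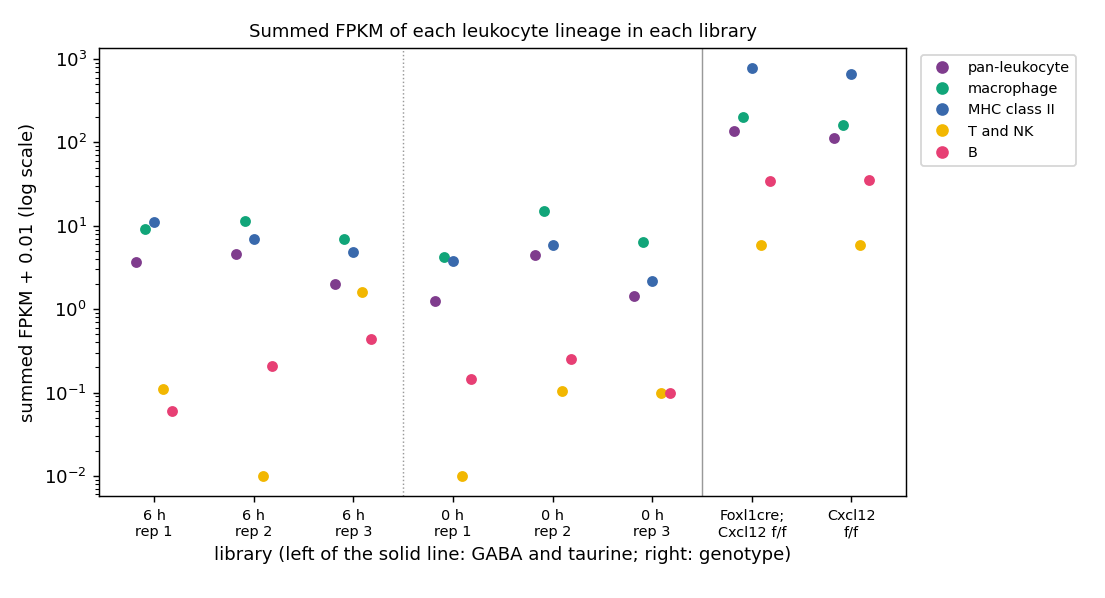
Summed FPKM + 0.01 of each lineage (log axis) in each library, with 1 point per lineage and the mast cell gene left out. The MHC class II sum is between 2.2 and 11.1 FPKM in the GABA and taurine libraries, where the macrophage sum is above it in all but 6 h replicate 1, and it leads in the genotype libraries at 776 and 661 FPKM.

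Values of the GABA and taurine libraries are given below for replicates 1, 2 and 3 in turn. Cd68 was at 4.20, 4.49 and 5.5 FPKM at 6 h and at 3.37, 6.36 and 4.57 FPKM at 0 h. Its mean over the 6 libraries was 66.1% of its mean in the genotype pair, the highest percentage of the 32 genes above 0 in that pair, on an estimated 64.1 to 110 fragments per library. It was followed at a distance by Itgax at 16% and Cd3e at 12.1%, both of which had only 1 or 2 libraries above 0. Lyz2, whose level was 16.7 times that of Cd68 in the Foxl1cre library and 15.7 times in the floxed control library, was at 2.35, 5.82 and 1.17 FPKM at 6 h and at 0.056, 7.15 and 1.06 FPKM at 0 h. The highest 0 h library was 127 times the lowest, and the 6 h values lay between them. The lowest value rested on an estimated 1.3 fragments and the highest on 149.7, so the size of that ratio is uncertain. The erythroid gene Hba-a1 (alpha globin) was high and low in much the same libraries, at 4.03, 5.19 and 0.149 FPKM at 6 h and at 0, 13.1 and 1.17 FPKM at 0 h. Hba-a2 of the same list did not follow, with means of 2.13 FPKM at 6 h and 0.040 FPKM at 0 h. The 4 erythroid genes summed to 10.6, 5.59 and 0.275 FPKM at 6 h. At 0 h they summed to 0.084, 14.7 and 1.33 FPKM. Their sum was thus higher in 6 h replicate 1 than in 6 h replicate 2, where Lyz2 lay the other way. Hba-a1 and Hba-a2 were chosen after their values were seen, and their part in the values of Lyz2 was not tested.

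The other macrophage genes were at or near 0 in most of the 6 libraries. Adgre1 was at 0.055, 0 and 0 FPKM at 6 h and at 0, 0.489 and 0 FPKM at 0 h. Csf1r was at 0.182, 0.367 and 0.256 FPKM at 6 h and at 0.447, 0.203 and 0.123 FPKM at 0 h. Ctss was at 0.096, 0.179 and 0 FPKM at 6 h and at 0, 0.644 and 0.044 FPKM at 0 h. Of these only Csf1r was above 0 in every library, and the 0 h replicate 2 library was the highest of the 6 for Adgre1, Ctss, Cd68 and Lyz2. C1qa was at 0.253, 0 and 0 FPKM at 6 h and at 0 in the 3 libraries at 0 h. C1qb was at 0.194, 0 and 0 FPKM at 6 h and at 0.225, 0.185 and 0.351 FPKM at 0 h. C1qc was at 1.31, 0.486 and 0 FPKM at 6 h and at 0, 0 and 0.059 FPKM at 0 h. The order of the C1q chains in the genotype pair was not kept in 6 h replicates 1 and 2. There C1qc led, at an estimated 23.5 and 9.4 fragments. In each 0 h library C1qb led, as in the genotype pair, on an estimated 4.1, 3.1 and 6.1 fragments. Cx3cr1 was at 0.016, 0 and 0.050 FPKM at 6 h and at 0, 0.015 and 0.014 FPKM at 0 h. Mrc1 was at 0, 0.020 and 0 FPKM at 6 h and at 0, 0 and 0.020 FPKM at 0 h. These 2 genes rested on an estimated 3 or fewer fragments in each library. Itgam ran from 0 to 0.140 FPKM and Itgax from 0 to 0.466 FPKM over the 6 libraries.

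Pan-leukocyte genes mostly lay at a fraction of 1 FPKM. Coro1a reached 1 FPKM in 1 library, and Tyrobp and Fcer1g in 2 libraries each. Ptprc was above 0 in 3 of the 6 libraries, and the other genes of the group in 5 or 6. Ptprc was at 0.134, 0.216 and 0 FPKM at 6 h and at 0.068, 0 and 0 FPKM at 0 h. Laptm5 was at 0.152, 0.307 and 0.107 FPKM at 6 h and at 0.110, 0.290 and 0 FPKM at 0 h. Rac2 was at 0.138, 0.384 and 0.248 FPKM at 6 h and at 0.170, 0.431 and 0.018 FPKM at 0 h. For each of the 3 genes the 6 h and 0 h values overlapped. Coro1a was at 0.230, 0.249 and 0.161 FPKM at 6 h and at 0.431, 1.46 and 0.518 FPKM at 0 h. Cd52 was at 0.555, 0.344 and 0.195 FPKM at 6 h and at 0, 0.176 and 0.167 FPKM at 0 h. The groups of these 2 genes did not overlap, with Coro1a below and Cd52 above at 6 h. Both lay under the level that was tested, and over every listed gene the 6 h libraries lay wholly above the 0 h libraries for 4.23% and wholly below for 4.43%. Cd52 rested on an estimated 3.1, 2.1 and 1.0 fragments at 6 h and on 0, 1.0 and 1.0 at 0 h. Coro1a rested on 6.0, 7.0 and 4.0 fragments at 6 h and on 13, 40.0 and 14.9 at 0 h. Tyrobp was at 1.38, 2.85 and 0.644 FPKM at 6 h and at 0.265, 0.876 and 0.276 FPKM at 0 h. Fcer1g, with which Tyrobp shares its signalling motif, was at 1.1, 0.227 and 0.643 FPKM at 6 h and at 0.212, 1.28 and 0.441 FPKM at 0 h. The 2 adaptors had different libraries on top, 6 h replicate 2 for Tyrobp and 0 h replicate 2 for Fcer1g.

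MHC class II genes lay between 0.728% (Cd74) and 4.97% (Ciita) of their genotype means. Cd74 was at 3.96, 3.32 and 2.18 FPKM at 6 h and at 1.45, 2.83 and 0.887 FPKM at 0 h. H2-Ab1 was at 3.71, 1.99 and 1.30 FPKM at 6 h and at 0.975, 1.72 and 0.254 FPKM at 0 h. H2-Aa was at 2.25, 0.777 and 0.812 FPKM at 6 h and at 0.613, 0.858 and 0.232 FPKM at 0 h. For all 3 genes 6 h replicate 1 was the highest and 0 h replicate 3 the lowest library, and the groups overlapped. H2-Eb1 was at 0.988, 0.742 and 0.440 FPKM at 6 h and at 0.691, 0.399 and 0.823 FPKM at 0 h. Ciita was at 0.160, 0.030 and 0.045 FPKM at 6 h and at 0.058, 0.102 and 0 FPKM at 0 h. H2-Eb1 did not share the low value in 0 h replicate 3, where it stood above H2-Ab1 and H2-Aa. Cd74 was the highest of the 5 in every library, while the ratio of H2-Ab1 to Cd74 ranged from 0.286 to 0.938 over the 6 libraries, far wider than in the genotype pair. Cd74 rested on an estimated 20.0 to 81.0 fragments per GABA and taurine library and H2-Ab1 on 4.3 to 56.4. The lowest of both were in 0 h replicate 3, which had the lowest ratio. In the genotype pair both genes rested on 834.1 fragments or more, so the counting error of the ratio is larger in the GABA and taurine libraries.

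Lymphocyte and mast cell genes were close to absent from the tables of these libraries. Cd3e was listed at 0 in 5 libraries and at 0.856 FPKM in 6 h replicate 3, on an estimated 18.3 fragments. Nkg7 was above 0 in that library alone, at 0.576 FPKM. Cd3d was at 0.099, 0 and 0.156 FPKM at 6 h and at 0, 0.094 and 0.089 FPKM at 0 h. The T and NK genes thus summed to 1.59 FPKM in 6 h replicate 3 and to 0.099 FPKM or less in each of the other 5 libraries. Cd79a was at 0.050, 0.092 and 0.313 FPKM at 6 h and at 0.086, 0.189 and 0.089 FPKM at 0 h. Cd79b was at 0, 0.104 and 0.059 FPKM at 6 h and at 0.048, 0.053 and 0 FPKM at 0 h. Ms4a1 was above 0 in 6 h replicate 3 alone, at 0.063 FPKM. The B cell genes also had their highest sum in 6 h replicate 3, at 0.435 FPKM, against 0.242 FPKM or less in the other 5 libraries. Cd3g and Cpa3 were listed at 0 in all 6.

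The comparison of 6 h with 0 h asks what changes in the cells over the treatment. No leukocyte transcript changed past the test's threshold. Only 5 of the 33 genes (Tyrobp, Cd68, Lyz2, Cd74 and H2-Ab1) averaged 1 FPKM or more over the 6 libraries and could enter limma's moderated test on log2(FPKM + 1), which was adjusted over all 10910 genes tested by the Benjamini-Hochberg method. None passed an adjusted p of 0.05, where 0.238% of all genes were called higher and 0.312% lower. At an unadjusted p under 0.05, 3 of the 5 were higher at 6 h, as were 4.45% of all genes. For none of the 5 did all 3 libraries at 6 h lie above all 3 at 0 h, as they did for 7.25% of all genes tested. The median log2 difference was 0.65 over the 5 genes and 0.00 over all genes, and it ranged from 0.33 to 0.96 when each library was left out in turn. This median was known when the genes were chosen. Tyrobp and H2-Ab1 averaged 0.473 and 0.982 FPKM at 0 h and met the filter only through their 6 h values. The filter thus favoured genes higher at 6 h, so no rise is read from the 3 of 5 or from the median of 0.65. With no filter on low values the median was 0.05 over 30 of the 33 genes.

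**Figure D4:**
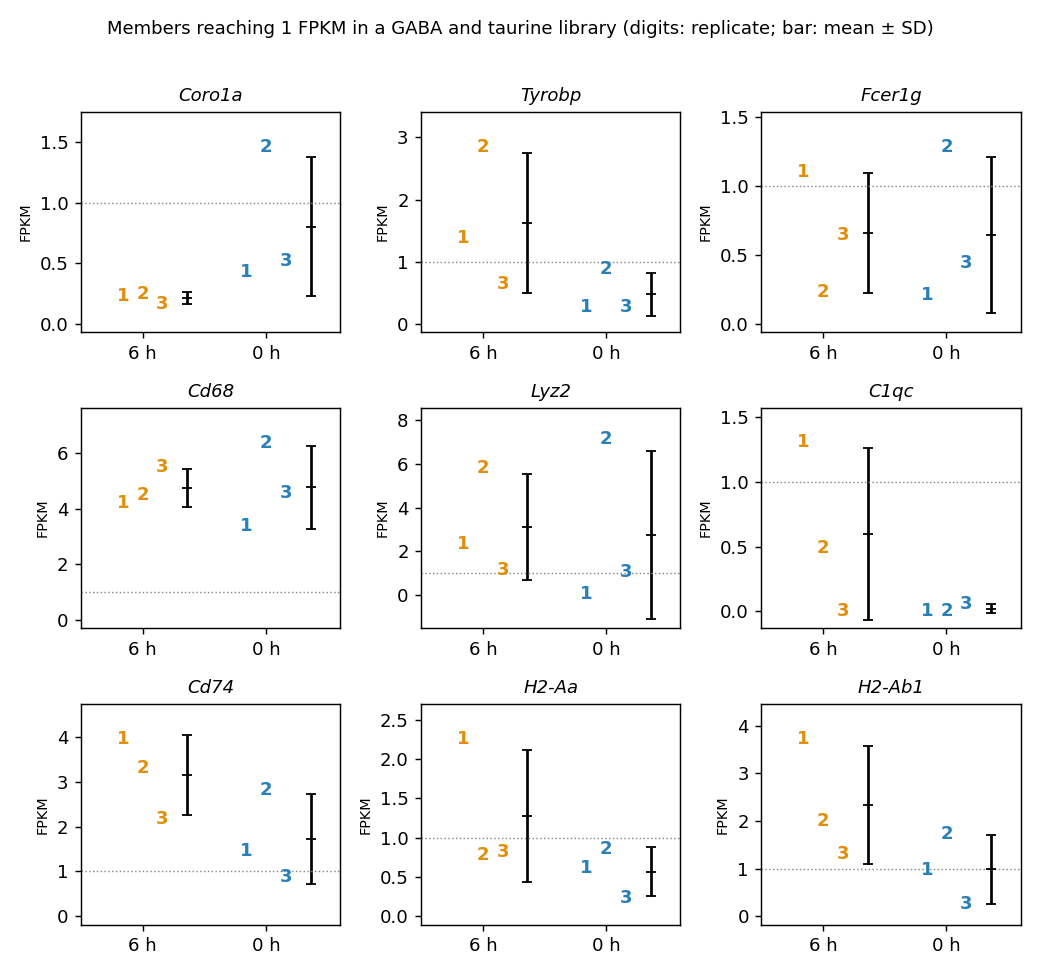
FPKM of the 9 leukocyte genes that reached 1 FPKM in at least 1 GABA and taurine library (1 panel per gene, linear axes), with digits for the replicate, bars for mean ± SD of 3 libraries and a dotted line at 1 FPKM. Cd68 lies above the line in all 6 libraries at about 4.7 FPKM in both groups, and among the 5 genes that were tested every pair of groups overlaps.

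Tyrobp averaged 1.62 ± 1.12 FPKM at 6 h and 0.473 ± 0.349 FPKM at 0 h (SD, n = 3 each), a log2 difference of 0.77 (SE 0.29, limma adjusted p = 0.410). Its values rested on an estimated 9.0, 20.0 and 4.0 fragments in replicates 1, 2 and 3 at 6 h. At 0 h they rested on 2.0, 6.0 and 2.0 fragments. Cd74 averaged 3.15 ± 0.899 FPKM at 6 h and 1.72 ± 1.00 FPKM at 0 h, a log2 difference of 0.65 (SE 0.25, limma adjusted p = 0.430). H2-Ab1 averaged 2.33 ± 1.24 FPKM at 6 h and 0.982 ± 0.731 FPKM at 0 h, a log2 difference of 0.76 (SE 0.30, limma adjusted p = 0.445). In these 3 genes the 0 h replicate 2 library lay above the lowest 6 h library, and a two-sided exact permutation test gave p = 0.2 for each, where the smallest p that 3 against 3 libraries allow is 0.1. Lyz2 averaged 3.11 ± 2.42 FPKM at 6 h and 2.75 ± 3.84 FPKM at 0 h (log2 difference 0.49, SE 0.58, limma adjusted p = 0.853), and Cd68 averaged 4.73 ± 0.684 FPKM at 6 h and 4.77 ± 1.5 FPKM at 0 h (0.02, SE 0.18, limma adjusted p = 0.988). For both the exact permutation p was 0.9. Without 0 h replicate 1 the log2 difference of Cd68 was -0.17 and that of Lyz2 was -0.16, and without 6 h replicate 3 that of Cd68 was -0.08.

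In the further lists, 1 gene passed the threshold. Krt8, a keratin of simple epithelia, averaged 2.06 ± 0.285 FPKM at 6 h and 0.396 ± 0.291 FPKM at 0 h (SD, n = 3 each), a log2 difference of 1.15 with a limma adjusted p of 0.0319. The call held in 4 of the 12 alternatives, among which the adjusted p reached 0.244. None of the 6 other macrophage genes, 11 other MHC class II genes, 8 interferon gamma pathway genes or 8 genes for ligands of leukocyte receptors that were tested passed it. At an unadjusted limma p under 0.05 the macrophage, MHC class II and ligand lists held 1, 3 and 1 genes, where 9.38% of all genes tested met it. The macrophage gene (Gpnmb), the 3 other MHC class II genes (Nfyb, Cd40 and Ifi30) and the ligand (Il15) had lower values at 6 h. The erythroid list ran from 0.275 to 10.6 FPKM in sum at 6 h and from 0.084 to 14.7 FPKM at 0 h, so these groups overlapped too.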

How the data were processed

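The values, deposited as 1 table per library, are FPKM made by the authors for 24346 gene symbols, per the file headers. In the submitters' processing notes the build is mm10 and the tools are Cuffdiff 2.2.1, SAMtools 0.1.18, TopHat2 2.1.1 and Bowtie2 2.2.8, without their roles. The sources used here give no annotation. Per the labels' protocols, SMART-Seq HT cDNA went into Nextera XT libraries, which do not mark strand.

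FPKM are not counts, so no count model was used. Genes that averaged 1 FPKM or more over the 6 GABA and taurine libraries were fitted as log2(FPKM + 1), which understates changes of low genes, with limma 3.58.1 (intensity trend) in R 4.3.3, unpaired, with Benjamini-Hochberg adjustment over all 10910 genes and a threshold of 0.05. The genotype pair is described by log2 ratios over the 14949 genes that averaged 1 FPKM or more, and genes counted as present at 1 FPKM.

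Depth was estimated from low values of single-transcript genes over 1500 bases: 65.2% to 70.7% of them lay within 0.06 of a whole multiple, up to 5, of 1 fragment, with 200 bases taken off the transcript length (GENCODE vM21). Any scaling by the authors enters these estimates, and fragments of genes with several transcripts are approximate. Counting intervals cover counting error only, since PCR copies are not independent molecules.

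On simulated data with 10910 genes in the design of 6 h against 0 h, limma recovered 39 of 100 genes changed by 0.5 on the log2 scale and 83 of 100 changed by 1, with 3 false calls. The changed genes were drawn at random from all genes tested. This recovery therefore need not hold for the 5 leukocyte genes tested, whose SE ran from 0.18 (Cd68) to 0.58 (Lyz2). No 2 libraries were copies: over all pairs, 2 values at or above 1 FPKM were equal.

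The 33 genes and the 14 further lists (172 genes, 169 of them in the tables) were chosen with earlier results of these data known. All 33 are accounted for, with every value for those at 1 FPKM or more in any library. Genes of the further lists could be named if past the threshold between 6 h and 0 h, if among the 3 with the largest genotype difference in their list at 1 FPKM or more in a library, or if they mark the sorting gate. 1 gene that this rule names is not reported here. Cxcl12 and Foxl1 were added as the targeted gene and the driver of Cre. Gpnmb and Ifi30 fall outside the rule and were named for an unadjusted limma p under 0.05, after their values were seen. Alternatives covered the pseudocount, the filter, the scaling, the prior variance, a replicate block and leaving out each library.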

Additional observations from a re-analysis of the deposited data

How the results depend on the processing

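No leukocyte transcript was called between 6 h and 0 h in the 12 alternatives that could be run. With a filter at 5 FPKM none of the 5 genes was tested, and without 6 h replicate 1 or 2 Tyrobp fell under the filter. The median log2 difference over those tested was 1.27 with a pseudocount of 0.1 and 0.0505 with no filter on low values, which brings in genes at or near 0, and 0.33 to 0.96 without each library in turn. Lowest and highest limma adjusted p-values over the alternatives were 0.175 and 0.633 for Tyrobp, 0.255 and 0.719 for Cd74 and 0.333 and 0.758 for H2-Ab1. The log2 difference of Cd68 ran from -0.1675 (without 0 h replicate 1) to 0.2075 and that of Lyz2 from -0.1587 (without 0 h replicate 1) to 1.3149 when each library was left out, and that of Cd68 was -0.0787 without 6 h replicate 3; the cause was not tested. Over all genes 60 were called in the main fit, 0 with no filter, 0 without the trend and 2 to 115 without each library, so the share of genes called depends on single libraries and settings.

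Same-numbered libraries did not deviate together (correlations -0.04, 0.01 and -0.03), so the replicate numbers were not taken as pairs. With the replicate block the median stayed at 0.65, no leukocyte transcript was called, and 23 genes were called over all.

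The number of leukocyte genes at least 2-fold higher in the Foxl1cre library was 1 (Adgre1) with a pseudocount of 0.1 and 1 after rescaling to TPM, and 0 elsewhere, including with at least 10 estimated fragments in both libraries, an alternative chosen after seeing the data. The median genotype difference ran from 0.17 to 0.25 over 6 alternatives. At least 1 FPKM in all 6 GABA and taurine libraries was reached by 2 genes (Cd68 and Cd74) after rescaling to TPM and by 1 to 2 without each library, with Lyz2 joining Cd68 without 0 h replicate 1 and Cd74 joining it without 0 h replicate 3. At thresholds of 0.1, 0.5 and 5 FPKM it was 9, 2 and 0 genes. Values under about 0.1 FPKM in these libraries rest on few fragments, so the listed zeros of single libraries do not show absence. Higher values of short transcripts can rest on few fragments too. Cd52 at 0.555 FPKM in 6 h replicate 1 rested on an estimated 3.1, and Tyrobp at 0.265 FPKM in 0 h replicate 1 on 2.0.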

Other observations

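Some immune genes outside the 33 were abundant in the GABA and taurine libraries, while others were low there. Csf1, which encodes the ligand of the macrophage receptor Csf1r, was at 1087, 1079 and 1053 FPKM in the 6 h libraries and at 981, 1069 and 1066 FPKM in the 0 h libraries, against 94.0 FPKM in the Foxl1cre library and 84.1 FPKM in the floxed control library. Il34, the other ligand of that receptor, lay between 0.691 and 2.07 FPKM in the GABA and taurine libraries, against 37.6 FPKM in the Foxl1cre library and 41.6 FPKM in the floxed control library. Csf1 was thus higher and Il34 lower in each GABA and taurine library than in both genotype libraries, with the normalisation of the sets not given in the sources used here. Cd40, a receptor of antigen-presenting cells that fibroblasts can also express, lay between 82.3 and 99.96 FPKM in the GABA and taurine libraries, against 19.3 FPKM in the Foxl1cre library and 12.7 FPKM in the floxed control library. Ccl5, a chemokine for T cells and monocytes, lay between 63.5 and 129 FPKM there, against 1.5 and 3.13 FPKM. Csf1 and Il34 were chosen after their values were seen.

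A pair of plasma cell transcripts was uneven between libraries of 1 time point. Jchain, the joining chain of secreted antibodies, was at 0.176, 10.5 and 0.401 FPKM in replicates 1, 2 and 3 at 6 h and at 0.254, 0.420 and 5.59 FPKM at 0 h. Mzb1, a chaperone of antibody-secreting cells, was above 0 in 6 h replicate 2 (2.80 FPKM) and 0 h replicate 3 (0.5 FPKM), the same libraries in which Jchain was high. The B cell genes Cd79a, Cd79b and Ms4a1 were at 0.104 FPKM or less in both libraries. A further pair of plasma cell genes was not highest in these libraries: Tnfrsf17 was above 0 only in 6 h replicate 3 (0.0961 FPKM), and Derl3 was highest in 0 h replicate 1 (0.809 FPKM). These plasma cell genes were chosen after their values were seen.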
